A study of Arabidopsis thaliana with 4 samples.

Results

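The JASMONATE-ZIM DOMAIN (JAZ) genes of Arabidopsis thaliana encode the repressors of the jasmonate response. The 10 members described here are JAZ1 (AT1G19180), JAZ2 (AT1G74950), JAZ3 (AT3G17860), JAZ5 (AT1G17380), JAZ6 (AT1G72450), JAZ7 (AT2G34600), JAZ8 (AT1G30135), JAZ9 (AT1G70700), JAZ10 (AT5G13220) and JAZ12 (AT5G20900). They were taken by locus identifier, with earlier results of these data known, and are 10 of 20511 nuclear gene identifiers in the deposited matrix. Root tips of 7-day-old seedlings were cut off, the plants recovered for 16 h, and the new tips were digested to protoplasts and sequenced as 10x Genomics single-cell libraries of transcript 3′ ends. WT plants gave 2 libraries and lbd_quad plants, which carry mutations in 4 LBD genes (genotype lbd6 lbd36 lbd12 lbd15), gave 2 libraries. All 4 libraries came from cut roots, so the genotypes are compared 16 h after the cut, with no library of uncut roots beside them. The labels do not say whether replicates were separate batches of plants, so p-values measure the spread between these libraries, which may be technical.

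Under low jasmonate, JAZ proteins bind MYC transcription factors and recruit the corepressor TOPLESS, mostly through the adaptor NINJA. Jasmonoyl-isoleucine joins JAZ proteins to the F-box receptor COI1, after which they are degraded and the MYC factors are released. Most JAZ genes are themselves targets of the MYC factors, so their transcripts are widely used as readouts of jasmonate response, and jasmonate is formed rapidly after wounding.

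A level below is the mean over the cells of a library of the gene's UMIs (tagged transcripts) per 10000 UMIs of the cell. The 3′ protocol counts transcript ends, so levels were not divided by gene length. The libraries held 1746 and 5061 WT cells and 845 and 2876 lbd_quad cells, with 7073293 to 21280667 UMIs per library. Replicate 1 of lbd_quad stood apart: it had the fewest cells and the most UMIs per cell, with a median of 6364 against 2090 to 2522 in the others, and it was the highest library for 8 of 10 JAZ genes, against 25.1% of all genes with a UMI. Of the 4 mutated genes, LBD12 had levels of 2.55 and 1.27 in WT replicates 1 and 2 and 0.335 and 0.142 in lbd_quad replicates 1 and 2, and the others stayed at or below 0.0747 in every library. A 3′ count can also come from a disrupted gene and so does not show that a protein is lost.

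JAZ1, a repressor that binds MYC2, was the most abundant member in every library. Its level was 3.40 and 2.63 in WT replicates 1 and 2 and 5.00 and 3.00 in lbd_quad replicates 1 and 2. The groups overlapped, with WT replicate 1 above lbd_quad replicate 2. JAZ1 supplied 53.2%, 54.6%, 51.9% and 61.2% of the summed JAZ level in WT replicates 1 and 2 and lbd_quad replicates 1 and 2. JAZ2, a close relative of JAZ1, was at 1.01 and 0.833 in WT against 1.28 and 0.507 in lbd_quad. JAZ3 was at 0.958 and 0.627 in WT against 0.727 and 0.579 in lbd_quad. JAZ12 was at 0.487 and 0.377 in WT against 0.457 and 0.369 in lbd_quad. For each of JAZ2, JAZ3 and JAZ12 the 2 genotypes overlapped. JAZ1, JAZ2, JAZ3 and JAZ12 together made 90.8% to 92.7% of the summed level in 3 libraries and 77.5% in lbd_quad replicate 1.

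The remaining members were sparse except in lbd_quad replicate 1. JAZ8, which lacks the canonical degron and is resistant to COI1-dependent breakdown, was at 0.158 and 0.0918 in WT against 0.843 and 0.176 in lbd_quad. Both mutant values lay above both WT values, and replicate 1 was 4.78 times replicate 2. JAZ10, a repressor known for its splice forms and for dampening the jasmonate response, was at 0.173 and 0.0955 in WT against 0.496 and 0.111 in lbd_quad. JAZ10 overlapped between genotypes because lbd_quad replicate 2 lay between the WT libraries. JAZ9 was at 0.0819 and 0.0695 in WT against 0.236 and 0.0401 in lbd_quad, and JAZ7 was at 0.0575 and 0.0736 in WT against 0.179 and 0.0324 in lbd_quad, and in both lbd_quad replicate 1 was the highest library and lbd_quad replicate 2 the lowest. JAZ5 was at 0.0332 and 0.0117 in WT against 0.220 and 0.0337 in lbd_quad, so that lbd_quad replicate 2 was barely above WT replicate 1. JAZ6 was at 0.0344 and 0.00932 in WT against 0.189 and 0.0567 in lbd_quad, on 20, 16, 155 and 73 UMIs, with both mutant libraries above WT. JAZ10 overlaps a long noncoding RNA, and JAZ12 a noncoding and a protein-coding gene, in the annotation of assembly TAIR10.1, and whether counting used strand is not stated, so their counts are uncertain.

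**Figure D1:**
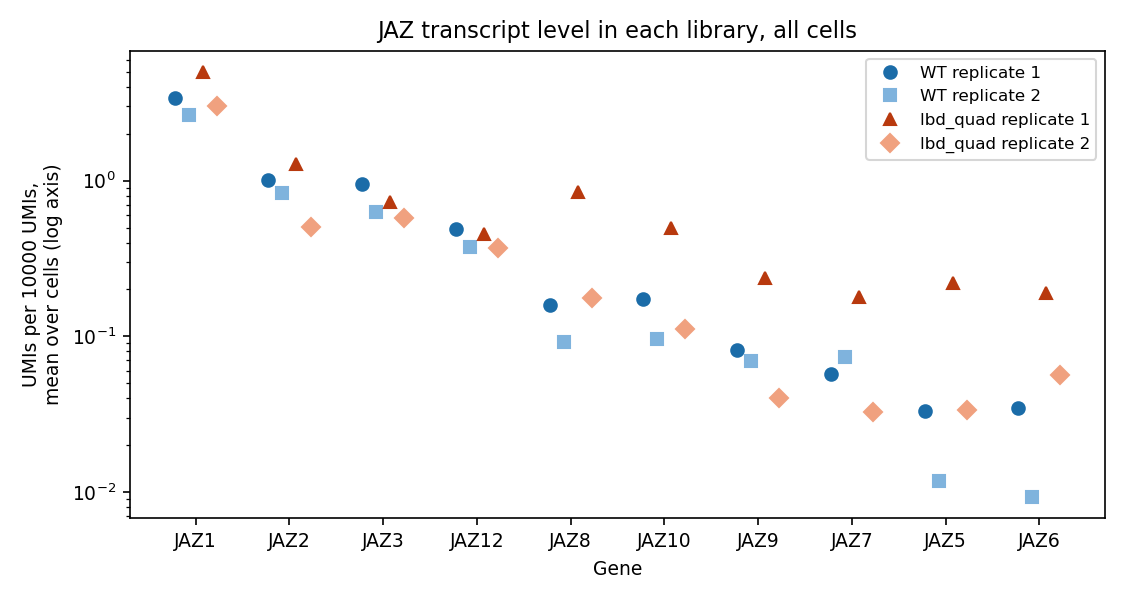
Level (mean UMIs per 10000) of each of the 10 JAZ genes in the 4 libraries, one point per library. The point of lbd_quad replicate 1 is the highest for 8 of the 10 genes.

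Over all cells no JAZ gene passed the test between genotypes. limma on log2(level + 0.1), with Benjamini-Hochberg adjustment over 9511 genes, called 0 of the 7 members that passed the filter of a mean level of 0.1, and 0 had an unadjusted p below 0.05; voom also called 0. The test called 0.389% of all genes. JAZ8 had the largest change of the 7, a log2 difference of 1.20 ± 0.52 (SE, n = 2 per genotype) with an adjusted p of 0.621 from limma. Without WT replicate 1 the adjusted p of JAZ8 from limma was 0.0197, without lbd_quad replicate 2 it was 0.00670, and without lbd_quad replicate 1 the difference was 0.31. Each of these fits leaves 1 library in a genotype, which is assumed to vary like the other genotype, and in the fit without lbd_quad replicate 2 that library is the one that stood apart. The median log2 difference of the 7 was 0.31, against 0.0063 over all genes tested. That median is the value of JAZ9, which averaged below 0.1 in WT and passed the filter only through lbd_quad replicate 1. JAZ5, JAZ6 and JAZ7 did not pass the filter, and 3 of 10 members (JAZ5, JAZ6 and JAZ8) had both mutant libraries above both WT libraries, against 20.6% of all genes with a UMI. In each of the 10 members lbd_quad replicate 1 exceeded lbd_quad replicate 2, and in 9 of 10 WT replicate 1 exceeded WT replicate 2. In these library means a change in the share of a cell type and a change in the RNA per cell cannot be told apart.

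Clustering the 10528 cells without the listed genes gave 32 clusters, of which 16 could be named after 10 classes from marker genes, always as "-like". Cluster 7 was named root cap-like at resolution 1, a name that most such lbd_quad cells did not keep at resolution 2. In lbd_quad replicate 1 it held 40.6% of the JAZ UMIs and 15.7% of all UMIs. The same cluster held 10.2% of the JAZ UMIs and 7.57% of all UMIs in lbd_quad replicate 2. In lbd_quad replicate 1 it held 52.0% of the JAZ5 UMIs, 48.7% of the JAZ8 UMIs and 44.7% of the JAZ10 UMIs.

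Among the 27 clusters with at least 20 cells in 2 or more libraries, cluster 7 had the highest summed JAZ level, with a mean of 15.8 over 3 libraries and a range of 7.82 to 27.1. Cluster 29, procambium-like, followed at 12.6 (9.45 to 15.7, 2 libraries), and cluster 17, an unnamed cluster led by GRP5, at 8.37 (5.48 to 11.3, 2 libraries). The lowest was cluster 18, unnamed, at 2.13 (1.41 to 2.47, 4 libraries). These means cover different libraries, and cluster 29 had no cells of lbd_quad replicate 1, where cluster 7 was at 27.1. Over WT replicate 2 and lbd_quad replicate 2 alone, an order computed after seeing the data, cluster 29 was first of 20 clusters, at 15.7 and 9.45, and cluster 7 followed at 12.4 and 7.82, with overlapping ranges. Neighbours in the order over all libraries overlapped in range at all but 2 steps, of which the lower separates the stem cell niche-like cluster 3 (2.40 to 2.85) from the non-hair epidermis-like cluster 21 (3.17 to 3.64). Over all libraries cluster 7 led the order for 6 of the 10 members, but over the 2 shared libraries for 3 (JAZ3, JAZ5 and JAZ8), with cluster 29 leading 4 (JAZ1, JAZ2, JAZ7 and JAZ9). Over all libraries JAZ2 and JAZ7 were led by cluster 29, JAZ12 by the phloem-like cluster 24 at 1.02 (0.799 to 1.35, 3 libraries), and JAZ3 by cluster 8, an unnamed cluster with EXPA17 among its leading genes, at 3.31 (1.45 to 5.17, 2 libraries).

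**Figure D2:**
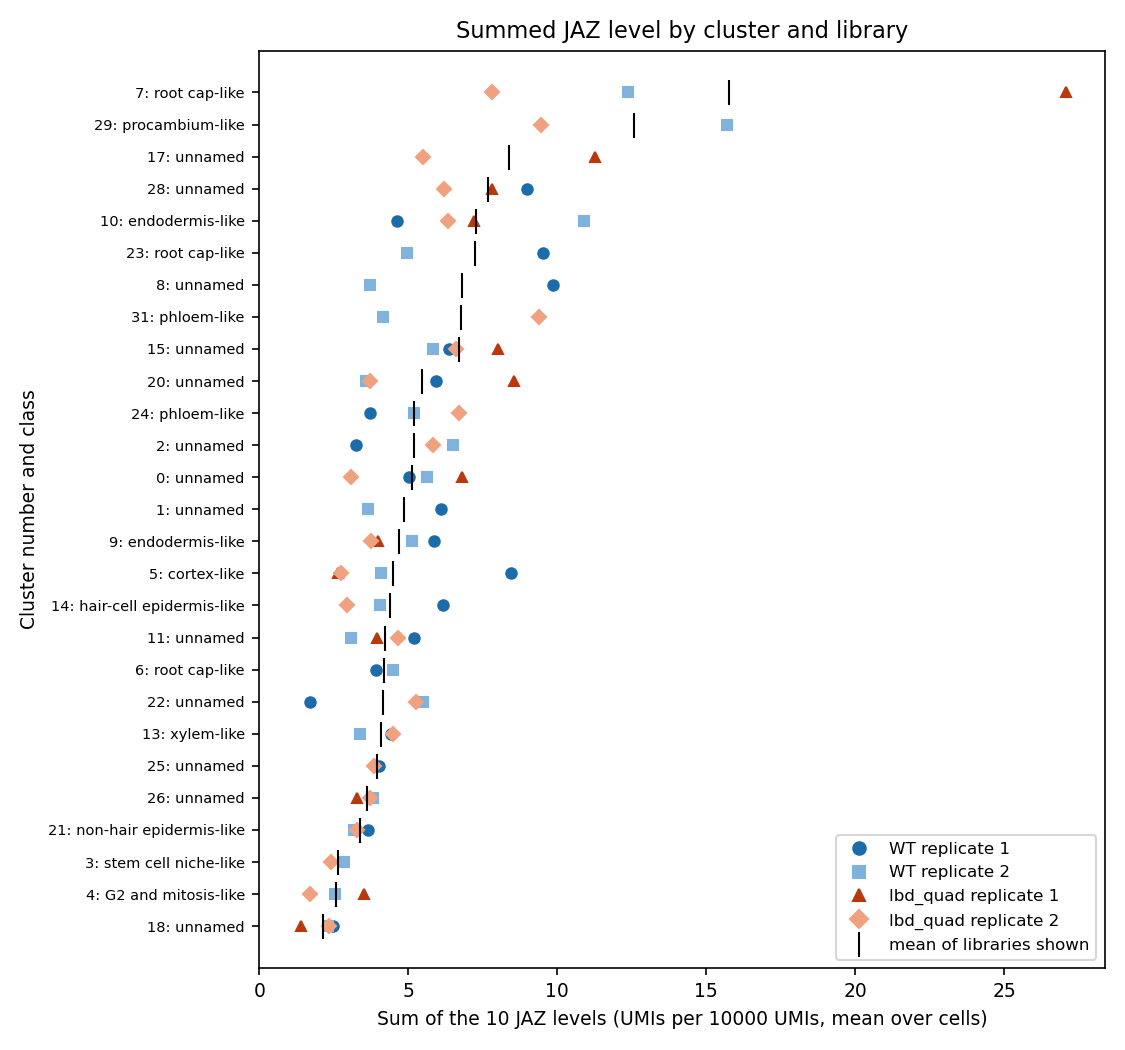
Summed level of the 10 JAZ genes (mean UMIs per 10000) in each cluster with at least 20 cells in 2 or more libraries, one point per library. Cluster 7 ranges from 7.82 to 27.1, its top point being lbd_quad replicate 1, which has no cells in cluster 29, and most neighbouring clusters overlap.

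By class the summed JAZ level ran from procambium-like (8.27 to 14.5, 2 libraries) and root cap-like cells (5.45 to 26.5, 4 libraries) at the top, through phloem-like (3.41 to 7.60), endodermis-like (4.60 to 6.64) and cortex-like cells (2.63 to 8.44), to stem cell niche-like (2.40 to 2.85) and dividing G2 and mitosis-like cells (1.71 to 3.50) at the bottom. Neighbours overlapped at all but 1 step, the niche-like range lying below that of non-hair epidermis-like cells. JAZ12 was ordered differently from JAZ1: its highest class was phloem-like, at 1.70 and 0.852 in WT against 2.03 and 0.798 in lbd_quad, overlapping the xylem-like range of 0.821 to 0.947. JAZ3 was highest in hair-cell epidermis-like cells (0.440 to 2.35) and root cap-like cells (0.891 to 1.37), and these ranges overlapped.

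**Figure D3:**
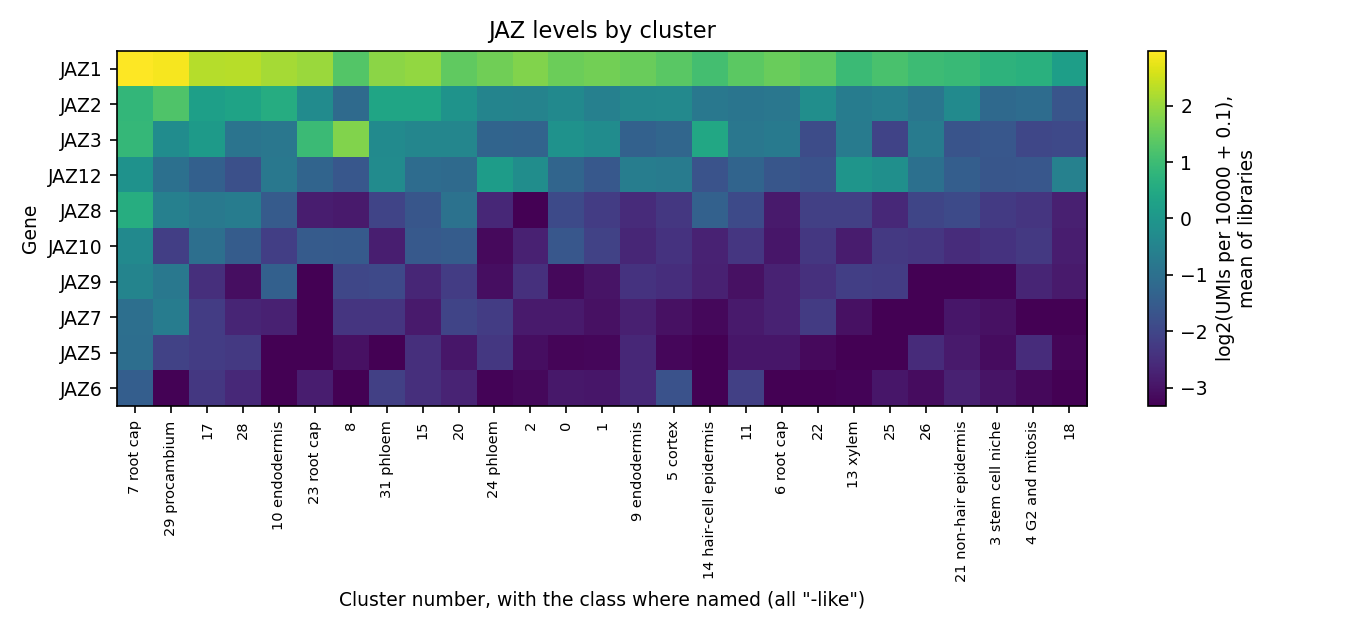
Level of each JAZ gene (rows, on a log2 scale) in each cluster (columns) with at least 20 cells in 2 or more libraries. JAZ1 is high in most columns, and cluster 7 is the highest column for 6 of the 10 rows when all libraries are averaged.

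Genotypes were compared within 4 classes, each with 20 or more cells per library. In root cap-like cells all 10 members had a higher mean in lbd_quad on the log2 scale, and none was called by limma; the test called 5.39% of genes. An unadjusted p below 0.05 was found for 3 of the 10, against 17.7% of all genes, and 58.6% of all genes had a higher mean in lbd_quad. The filter used the mean over all 4 libraries. JAZ5, JAZ6, JAZ7, JAZ8 and JAZ9 averaged below 0.1 in WT cells of the class and passed it only through lbd_quad. For these members the higher mean was largely set by the filter. JAZ1 was at 3.57 and 2.99 in WT against 13.8 and 4.96 in lbd_quad, with no overlap. JAZ8 was at 0.0393 and 0.147 in WT against 2.84 and 0.248 in lbd_quad, a log2 difference of 2.44 ± 0.77 (SE) with an adjusted p of 0.0883 from limma. JAZ6, which had 1 and 0 UMIs in WT and 68 and 25 in lbd_quad, differed by 1.94 ± 0.55 (SE), adjusted p = 0.0595 from limma. JAZ10 was at 0.0855 and 0.125 in WT against 1.56 and 0.113 in lbd_quad, so only replicate 1 was high. Without lbd_quad replicate 1 the differences were 0.91 for JAZ8 and 0.058 for JAZ10. Mutant libraries lay above WT libraries in 4 of the 10 members, against 29.3% of genes, and the median log2 difference was 1.26 for the members and 0.13 for all genes tested. Both member values include genes that passed the filter only through lbd_quad.

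The root cap-like class was held by different clusters in the 2 genotypes. Clusters 6 and 23 held 69.1% and 26.8% of the class in WT replicate 1 and 58.1% and 31.4% in WT replicate 2, while cluster 7 held 93.4% and 98.3% in lbd_quad. The 10 root cap markers, all with a UMI, summed to 242 and 115 in WT against 105 and 61.3 in lbd_quad cells of the class. At resolution 2 the class held 93 and 226 WT cells but 20 and 26 lbd_quad cells, against 91 and 172 lbd_quad cells at resolution 1. There an unnamed cluster of 4 and 30 WT and 54 and 134 lbd_quad cells had 0 markers raised. Its leading genes included PSK4 and GA2OX6, as in cluster 7. The root cap name of most lbd_quad cells of the class thus depended on the resolution. Within cluster 7 the WT libraries had only 4 and 29 cells. There the summed JAZ level was 15.3 and 12.4 in WT against 27.1 and 7.82 in lbd_quad, so the genotypes overlapped. The 12 rapid stress response genes summed to 20.8 and 16.2 in WT against 53.9 and 33.5 in lbd_quad root cap-like cells, and their part in the result was not tested.

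In cortex-like cells 5 of the 6 tested members were lower in lbd_quad, again with 0 called, against 0.513% of genes. Of all genes tested there, 45.2% had a higher mean in lbd_quad. An unadjusted p below 0.05 was found for 4 of the 6, against 11.4% of all genes. JAZ2 was at 1.73 and 0.758 in WT against 0.0490 and 0.179 in lbd_quad. It rested on 78 and 19 UMIs in WT and 2 and 8 in lbd_quad, and differed by a log2 change of -2.62 ± 0.54 (SE), adjusted p = 0.0642 from limma. JAZ3 was at 0.950 and 0.318 in WT against 0 and 0.0338 in lbd_quad, on 31 and 8 against 0 and 2 UMIs; the 0 allows up to 0.137 UMIs per 10000 (exact Poisson 95% limit, counting error only), with a log2 change of -2.52 ± 0.57 (SE) and an adjusted p of 0.0807 from limma. JAZ6 was at 0.118 and 0.0357 in WT against 0.344 and 0.301 in lbd_quad. JAZ3 averaged below 0.1 in lbd_quad and JAZ6 below 0.1 in WT, so each passed the filter only through the other genotype. JAZ1 was at 4.42 and 2.34 in WT against 1.11 and 1.95 in lbd_quad. With the UMIs of the class pooled, JAZ1 was at 1.86 in WT replicate 2 and 1.88 in lbd_quad replicate 2. The genotypes then overlapped for JAZ1, while JAZ2 and JAZ3 stayed apart. Mutant libraries lay below WT libraries in 3 members, JAZ3 among them, and above them in 1, JAZ6, against 22.4% and 18.7% of genes. Replicate 1 of lbd_quad had 22 cortex-like cells and replicate 2 had 139, against 80 and 450 when clusters were drawn at resolution 0.5, where the JAZ2 change was -0.59 and that of JAZ3 -0.36. At resolution 2 the changes were -0.14 for JAZ2, -0.56 for JAZ3 and 0.14 for JAZ1. Of 10 root cap markers, 8 had a UMI in cortex-like cells, with CEL5 and CEP1 at 0; their summed level was 0.965 and 0.142 in WT against 0 and 0 in lbd_quad, and their part in the result was not tested. Cluster 15, which stayed unnamed and in which 2 cortex markers were raised, had 62 and 258 WT cells and 42 and 273 lbd_quad cells. Its summed JAZ level was 6.37 and 5.84 in WT against 8.01 and 6.60 in lbd_quad, and 3 of its members had both mutant libraries above WT, against 16.8% of genes, with 0 below.

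In phloem-like cells, of which there were 40 and 262 in WT and 22 and 177 in lbd_quad, all 7 tested members had a higher mean in lbd_quad, and 0 was called, against 0.0339% of genes. Of all genes tested there, 45.4% had a higher mean in lbd_quad. JAZ5 had 2 and 1 UMIs in WT against 11 and 22 in lbd_quad, and JAZ6 0 and 1 against 12 and 3. Both passed the filter only through lbd_quad, so their direction was largely set by it. An unadjusted p below 0.05 was found for 3 of the 7, JAZ5 among them, against 7.04% of all genes. The summed JAZ level was 3.41 and 4.89 in WT against 7.60 and 7.36 in lbd_quad. JAZ1 was at 1.07 and 2.58 in WT against 2.85 and 4.52 in lbd_quad, with no overlap. Of the 7, 4 had both mutant libraries above WT, against 16.2% of genes. JAZ5 and JAZ6, which passed the filter only through lbd_quad, were among these 4. Stress response genes summed to 6.89 and 11.0 in WT against 21.9 and 29.5 in lbd_quad, and their part was not tested. In endodermis-like cells none of 6 tested members was called, against 1.24% of genes, and JAZ2 had the only unadjusted p below 0.05, against 10.1% of all genes. Its levels were 1.14 and 1.34 in WT against 0.637 and 0.520 in lbd_quad, a log2 change of -0.98 ± 0.33 (SE) with an adjusted p of 0.250 from limma. Cluster 10 made up 16.4% and 26.5% of this class in WT against 50.0% and 33.5% in lbd_quad, and the 10 endodermis markers summed to 26.5 and 42.7 against 167 and 103; their part in the result was not tested. Mutant libraries lay below WT in 3 of the 6 members, against 19.3% of genes. With the UMIs of the class pooled, JAZ2 was at 0.978 and 2.35 in WT against 0.964 and 0.894 in lbd_quad, so WT replicate 1 was barely above.

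**Figure D4:**
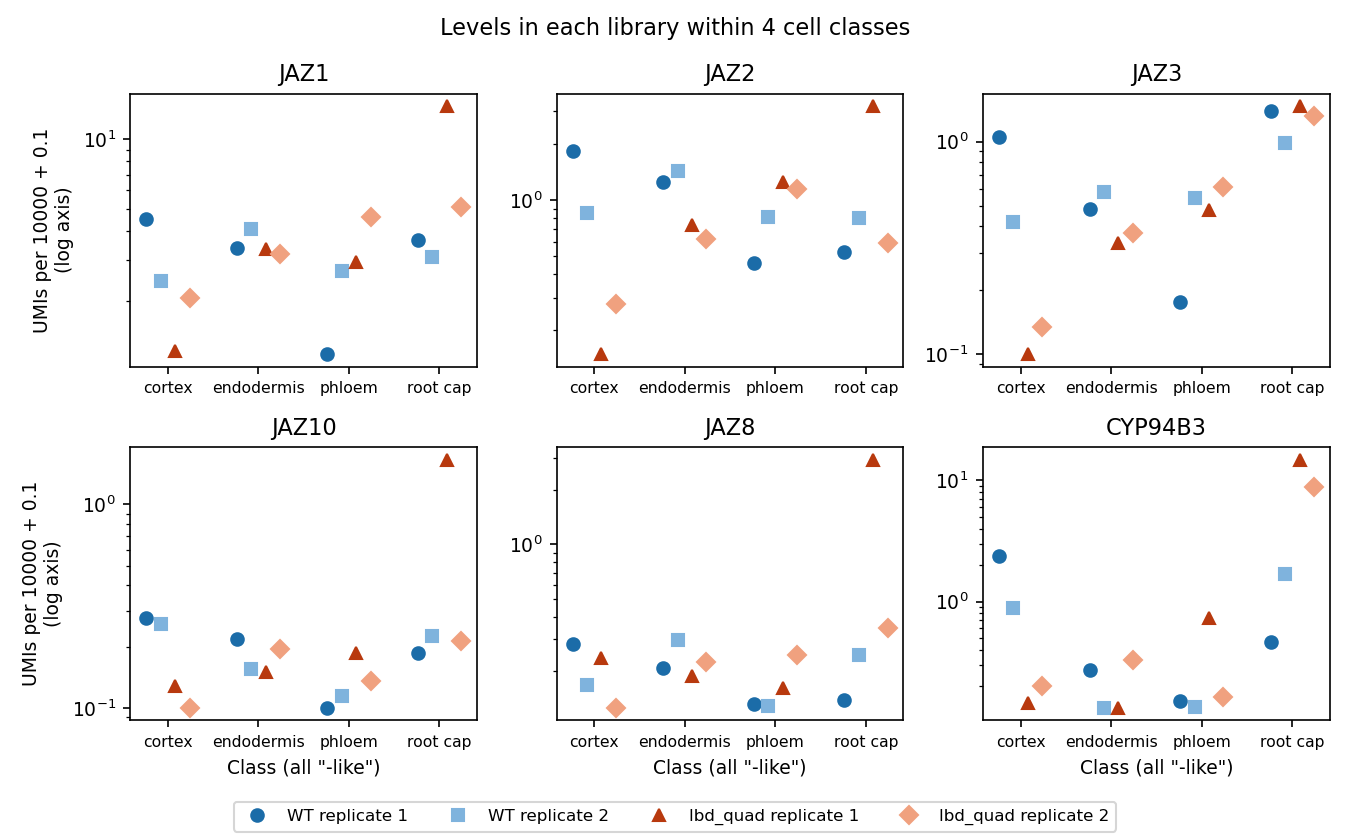
Level plus 0.1 (mean UMIs per 10000, log axis) of JAZ1, JAZ2, JAZ3, JAZ10, JAZ8 and CYP94B3 in cortex-like, endodermis-like, phloem-like and root cap-like cells, one point per library. In root cap-like cells lbd_quad replicate 1 stands above the other 3 libraries, and in cortex-like cells JAZ2 and JAZ3 are lower in both lbd_quad libraries than in both WT libraries.

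The genotype difference was then compared between classes, in 6 pairs, with limma and the library as a block. JAZ2 differed between cortex-like and phloem-like cells by a log2 value of -3.59 ± 0.81 (SE), adjusted p = 0.0464, and JAZ3 by -3.33 ± 0.68 (SE), adjusted p = 0.0301. These were 2 of 8 members tested, against 0.733% of genes. Between cortex-like and root cap-like cells 4 of 8 passed, against 6.50% of genes: JAZ1 by -2.39, JAZ2 by -3.70, JAZ3 by -2.77 and JAZ10 by -2.78, at adjusted p from limma of 0.0412, 0.00899, 0.0181 and 0.0457. JAZ10 had 8 and 2 UMIs in WT and 1 and 0 in lbd_quad cortex-like cells, and did not pass the filter within that class. In root cap-like cells JAZ10 was high only in lbd_quad replicate 1, and without that library it did not pass the filter of this comparison. JAZ10 thus entered the 4 calls only through the library that set its direction. The other 4 pairs gave 0. The other pairs called 0.205% (cortex-endodermis), 0.302% (endodermis-phloem), 4.09% (endodermis-root cap) and 2.84% (phloem-root cap) of genes. None of these JAZ calls stood without WT replicate 1, without lbd_quad replicate 1, in cells of at least 2000 UMIs, or at resolutions 0.5 and 2, where the counts were 0 for both pairs. Without WT replicate 2, and without lbd_quad replicate 2, each pair still had JAZ calls. Those fits leave 1 library in a genotype, and the share of all genes they called was not compared. With a library left out, the cortex-root cap difference ranged from -3.50 to -1.28 for JAZ1, -5.37 to -2.02 for JAZ2, -3.18 to -2.35 for JAZ3 and -4.09 to -2.59 for JAZ10, the last with no value without lbd_quad replicate 1. The cortex-phloem difference ranged from -4.55 to -2.64 for JAZ2 and -4.80 to -1.85 for JAZ3. At resolution 2 the cortex-root cap differences were -1.50, -0.42, -0.46 and 0.078 for JAZ1, JAZ2, JAZ3 and JAZ10.

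Other genes of the jasmonate pathway were counted from lists made by pathway role. Over all cells 0 of 11 tested synthesis genes, 0 of 7 turnover genes, 0 of 5 receptor and repression genes and 0 of 3 bHLH factors were called. MYC2, the main JAZ-bound factor, was at 1.85 and 1.41 in WT against 2.77 and 1.94 in lbd_quad. Of 11 tested stress genes, TCH4, a touch-induced wall enzyme, was called, at 0.989 and 0.995 in WT against 3.71 and 5.10 in lbd_quad (log2 difference 2.03 ± 0.30 SE, adjusted p = 0.0439 from limma). The call was lost under 7 of 13 alternatives, while the difference stayed between 1.43 and 2.25. In root cap-like cells 3 of 9 turnover genes, 1 of 12 synthesis genes and 2 of 12 stress genes were called higher, against 3.55% of genes. CYP94B3, which hydroxylates jasmonoyl-isoleucine, was at 0.366 and 1.59 in WT against 14.7 and 8.68 in lbd_quad, adjusted p = 0.00573 from limma. IAR3, which hydrolyses jasmonate conjugates, was at 0.732 and 1.03 in WT against 8.13 and 3.59 in lbd_quad, adjusted p = 0.0193 from limma. LOX3, a lipoxygenase of jasmonate synthesis, was at 0.0886 and 0.179 in WT against 1.93 and 0.560 in lbd_quad, adjusted p = 0.0291 from limma. The LOX3 call was lost under 6 of 10 alternatives, with log2 changes of 0.92 to 3.27, the IAR3 call under 4 of 11 with a reversal at resolution 2 (-0.32), and the CYP94B3 call under 3 of 11, with changes of 0.19 to 4.61. In cortex-like cells CYP94B3 was at 2.25 and 0.780 in WT against 0.0459 and 0.0995 in lbd_quad, called lower at an adjusted p of 0.0374 from limma, against 0.367% of genes called lower, and it was the only listed gene called there. In that class CYP94B3 was below 0.1 in both lbd_quad libraries and passed the filter only through WT, so its direction was largely set by the filter. The cortex-like call of CYP94B3 was lost under 7 of 11 alternatives, and the change reversed under 2 more, at resolutions 0.5 and 2. Without a library the change ranged from -3.79 to -2.37 on the log2 scale. CYP94B1, a second hydroxylase of the conjugate, was at 0.00568 and 0.0236 in WT against 2.92 and 0.509 in lbd_quad root cap-like cells (adjusted p = 0.00715 from limma), and the stress genes ERF5, a transcription factor, and CAF1B, a deadenylase, had adjusted p of 0.00937 and 0.0127 from limma. The calls were lost under 4 of 10 alternatives for CYP94B1, 3 of 11 for ERF5 and 4 of 11 for CAF1B, with changes that stayed above 0. CYP94B1, 1 of the 3 turnover genes called in root cap-like cells, was below 0.1 in both WT libraries. It passed the filter only through lbd_quad, so its direction was largely set by the filter.

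Among the more abundant genes of each list, levels over all cells overlapped between genotypes for ASK1, a subunit of the COI1 complex (5.29 and 4.53 in WT against 4.99 and 3.79 in lbd_quad), and for NINJA, the adaptor between JAZ proteins and TOPLESS (0.370 and 0.504 against 0.440 and 0.548). CUL1, the cullin of the COI1 complex, was at 0.638 and 0.725 in WT against 0.624 and 0.501. The allene oxide cyclases AOC3 and AOC4 were at 1.13 and 1.02 against 1.89 and 1.5, and at 1.08 and 0.914 against 1.09 and 1.04, and the reductase OPR3 at 0.686 and 0.558 against 1.40 and 0.785. The oxidase JOX2 was at 1.46 and 1.44 against 2.04 and 1.39, and the competing bHLH factors JAM1 and JAM3 were at 0.195 and 0.113 against 0.352 and 0.0900, and at 0.208 and 0.176 against 0.173 and 0.253. The wound-responsive genes ERF109 and TAT3 were at 1.23 and 1.00 against 3.24 and 1.57, and at 1.67 and 1.06 against 3.11 and 1.10, while ERF115 did not pass the filter. The zinc-finger stress genes ZAT12 and ZAT10 were at 5.89 and 5.16 against 7.44 and 11.2, and at 2.50 and 0.900 against 6.51 and 3.59. None of these was called. Of the other TIFY genes, ZIM, ZML1 and ZML2 had log2 differences of 0.19, 0.02 and 0.17, and JAZ4, JAZ11 and JAZ13 did not pass the filter. JAZ4 had 1, 2, 3 and 1 UMIs in WT replicates 1 and 2 and lbd_quad replicates 1 and 2, JAZ11 had 55, 107, 52 and 82, and JAZ13 had 17, 8, 28 and 16.

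**Figure D5:**
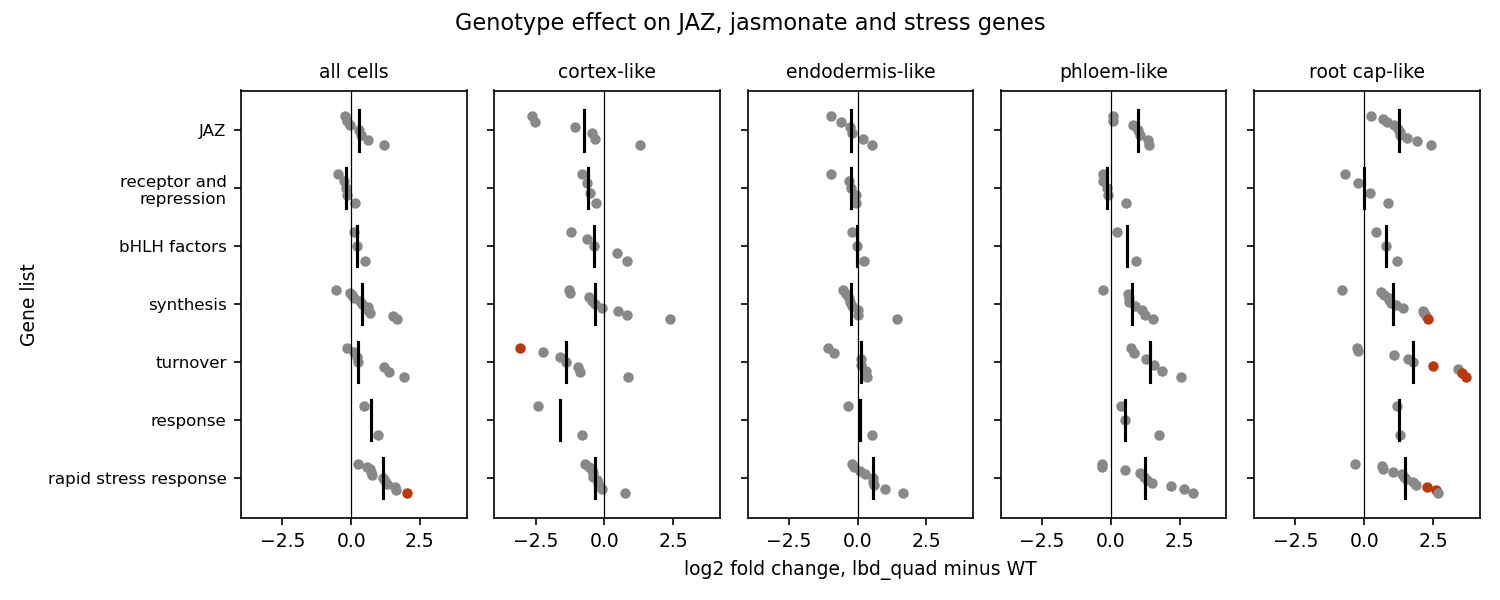
Log2 difference (lbd_quad minus WT) of the tested genes of each list, over all cells and within each class; red points have an adjusted p below 0.05 and the black bar is the list median. The JAZ points lie above 0 in phloem-like and root cap-like cells and mostly below 0 in cortex-like cells, with none red. In phloem-like and root cap-like cells some of them passed the filter only through lbd_quad.

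The JAZ genes varied together across clusters to differing degrees. Over 84 cluster-by-library units, the Pearson correlation of log2 levels was above 0 in 41 of 45 JAZ pairs, with a median of 0.36 and a range of -0.05 to 0.77. The units share libraries, depth and cell types, so these are descriptions. The genes most like the summed JAZ level were ATAF2 (r = 0.86), a NAC transcription factor, AT3G13310 (0.78) and AT5G21940 (0.77), followed by AT5G65207, ATAF1, AT1G69760, DREB2A, J11, ERF-1 and SRC2 at 0.74 to 0.71. JAZ1 was most like ATAF2 (0.86), ERF-1 (0.78) and JAZ2 (0.77). JAZ2 was most like JAZ1 (0.77), ATAF2 (0.75) and DREB2A (0.70). JAZ3 was most like RCD1 (0.73), AT4G36010 (0.73) and NFXL1 (0.72).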

How the data were processed

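Cells from 4 libraries were analysed. Per the submitters' processing notes, Cell Ranger 7.0.1 and Seurat were used; the genome build, the strand setting, the filters on cells and any doublet removal are not given in the sources used here. The authors deposited 1 matrix of natural log values: the natural log of 1 plus UMIs per 10000, checked by sums of 10000 per cell and 100% whole UMIs within 0.01. Columns matching no sample (3315) were not used. Scrublet marked 1 of 10529 cells, too few to rely on, and that cell was removed. Libraries shared 0 to 3 barcodes per pair. The members and lists were chosen with earlier results of these data known.

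Library or class means over cells, as log2(mean + 0.1), were tested with limma 3.58.1 in R 4.3.3 on genes with a mean of at least 0.1, with Benjamini-Hochberg adjustment over all genes at 0.05, and no replicate block. Cells were clustered in scanpy 1.11.5 (2000 variable genes without the 164 listed genes, 40 components, 15 neighbours, resolution 1). A cluster was named from at least 3 markers raised 2-fold and found in 10% of its cells. Class differences used the library as a random block, with an estimated correlation of 0.17. The fits were also run on simulated data to check the code. The simulated class values had no effect shared within a library, so that run does not measure how the class fits perform here. The named genes are the 10 members, JAZ4, JAZ11 and JAZ13, list members past the threshold, the 3 most abundant of each list, and the genes most like JAZ1, JAZ2, JAZ3 and the sum. LOX2, JOX1, VSP1, VSP2, CORI3, PDF1.2A, ORA59 and LBD14 were not analysed here.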

Additional observations from a re-analysis of the deposited data

Results flagged for a closer look

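The genotype difference of the following genes differed between classes by limma with the library as a block, as log2 values of the first class minus the second. Between cortex-like and phloem-like cells the values were -3.81 for IAR3, -3.59 for JAZ2, -3.33 for JAZ3 and -4.35 for CYP94B3. Between cortex-like and root cap-like cells they were -2.39 for JAZ1, -4.75 for IAR3, -3.70 for JAZ2, -2.78 for JAZ10, -2.77 for JAZ3 and -6.76 for CYP94B3. Between endodermis-like and root cap-like cells they were -2.37 for IAR3 and -3.55 for CYP94B3. These pairs called 0.733%, 6.50% and 4.09% of all genes. The list is partial. Between cortex-like and root cap-like cells 5 of 7 turnover, 3 of 12 stress, 2 of 12 synthesis and 1 of 2 response genes were called. Between endodermis-like and root cap-like cells 3 of 7 turnover and 2 of 12 stress genes were called. The root cap-like class was mostly cluster 7 in lbd_quad and clusters 6 and 23 in WT, and lbd_quad replicate 1 had 22 cortex-like cells; the part of either in these values was not tested. Of 9 alternatives, the IAR3 call was lost in 4 (cortex-phloem), 2 (cortex-root cap) and 5 (endodermis-root cap), and the CYP94B3 call in 7, 2 and 7; at resolution 2 the CYP94B3 difference also reversed in both pairs with root cap-like cells, and that of IAR3 in the endodermis-root cap pair. The JAZ calls were lost in 6 to 8 alternatives each, and the JAZ10 difference reversed at resolution 2. JAZ10 passed the filter of the class comparison only through lbd_quad replicate 1.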

How the results depend on the processing

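Over all cells the number of JAZ genes called was 0 under the planned settings other than leaving out a library, where it was 0 to 1. With the replicate number as a block, 2 members were called in cortex-like cells, where 182 of 8184 genes were called, against 42 without it. In root cap-like cells the block called 5 members and 1115 of 7639 genes, against 412 genes without it. The block also called 1 member in the cortex-phloem difference. Differences of same-numbered libraries correlated at 0.51 over 9511 genes, but no label says that the numbers mark a shared batch. Root cap-like cells of at least 2000 UMIs gave 2 members called, and 631 of 7306 genes. At resolution 0.5 that class gave 1 member called, and 428 of 7541 genes. The cortex-phloem count of 2 fell to 0 with a pseudocount of 1, in cells of at least 2000 UMIs and at resolutions 0.5 and 2. It also fell without a library. The cortex-root cap count of 4 was 2 with a pseudocount of 1, 0 in cells of at least 2000 UMIs and at resolutions 0.5 and 2, and 0 to 6 without a library. The endodermis-root cap and phloem-root cap counts of 0 each moved in 1 of 9 alternatives, a fit without a library. For these alternative fits of class differences the share of all genes called was not compared.

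Log2 changes that reversed, the cause being not tested, were as follows. Over all cells, equal weight of clusters gave -0.063 for JAZ1 and 0.10 for JAZ3; library sums gave 0.069 and voom 0.064 for JAZ2 and voom -0.33 for JAZ9; cells of at least 2000 UMIs gave 0.043 for JAZ2; leaving out a library gave JAZ2 -0.74 to 0.44, JAZ3 -0.50 to 0.043, JAZ10 -0.13 to 1.37 and JAZ12 -0.20 to 0.10. In cortex-like cells, resolution 2 gave 0.14 for JAZ1, 0.60 for JAZ8 and 0.24 for CYP94B3, resolution 0.5 gave 0.70 for JAZ8 and 0.048 for CYP94B3, and leaving out a library gave JAZ8 -0.71 to 0.12 and JAZ12 -1.48 to 0.60. In endodermis-like cells of at least 2000 UMIs, JAZ8 was 0.14 and JAZ9 -0.022, and without a library JAZ9 ranged from -0.038 to 0.41. In phloem-like cells of at least 2000 UMIs, JAZ7 was -0.020 and JAZ12 -0.22; without a library JAZ7 ranged from -0.38 to 0.52 and JAZ12 from -0.54 to 0.71. In root cap-like cells JAZ2 ranged from -0.14 to 2.30 without a library, and resolution 2 gave -0.10 for JAZ3, -1.25 for JAZ12 and -0.32 for IAR3. At resolution 2 the class differences were 0.078 for JAZ10 and 0.050 for CYP94B3 (cortex-root cap), and 0.10 for CYP94B3 and 0.065 for IAR3 (endodermis-root cap).

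Over all cells 37 genes were called, against 466 with the replicate block, 19 with size factors and with a pseudocount of 1, 1 on library sums, 0 by voom, 0 with no filter, and 164 to 284 without a library. Of 116 mean levels of members within a class at resolutions 0.5 and 2, 24 moved by more than 1 SD of the replicates.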
